A study of Mus musculus with 6 samples.

Results

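The genes described here are 32 interferon-stimulated genes, chosen as a list of gene names and matched to the name given to each assembled feature in 6 RNA-seq tables. Of the 32, 26 had a feature of that name, and values of features that share a name were added together. The tables name 48733 genes in all, of which 12112 had a mean of at least 1 FPKM (fragments counted per length of the transcript and per depth of the library) over the 6 libraries, and 21 of the 26 members were among these. *Ifit3*, *Irf9*, *Mx1*, *Oas1a*, *Oasl2* and *Rtp4* had no feature of their own name and were not analysed here by name.

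The study sequenced RNA of bone and of osteoblasts to learn which genes of a bone density locus these cells express. Every library came from mice of the strain CC016/GeniUnc, an inbred Collaborative Cross strain, with no other allele or treatment given by the labels and no age or sex. Of the 6 libraries, 3 are labelled bone, which was femoral cortical bone with the marrow spun out, and 3 are labelled osteoblasts, which were marrow stromal cells grown for 8 days in ascorbic acid, beta-glycerophosphate and dexamethasone, agents that drive them to form mineralizing osteoblasts. The methods give 3 mice and do not say which libraries share a mouse, so the p-values measure only the spread between these samples.

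Interferons are secreted signals of antiviral defense. Type I interferons bind the receptor of *Ifnar1* and *Ifnar2*, whose kinases phosphorylate STAT2, and this acts with IRF9 in ISGF3, a complex that binds the interferon-stimulated response element in the promoters of its target genes. The targets include sensors of viral RNA, enzymes that block viral replication, and *Irf7*, *Stat2* and *Usp18*, which feed back on the pathway. Dexamethasone, a glucocorticoid, was in the osteoblast medium but is not named for the cortical bone.

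The labels did not divide the libraries the way marker genes did. *Hbb-bt*, a beta globin of red cells, reached 34838 FPKM under the bone label for replicate 3. Under the osteoblast label it reached 34268 and 48650 FPKM for replicates 2 and 3. The other libraries, bone replicates 1 and 2 with osteoblasts replicate 1, held 3.43 to 7.05 FPKM of it. The same 3 libraries with *Hbb-bt* above 1000 FPKM also had the higher summed FPKM of 9 named neutrophil markers (14332 to 17357 against 2.53 to 9.91), 6 B cell markers (115 to 129 against 0 to 0.264), 6 named T and NK cell markers (54.4 to 71.9 against 0 in every other library, *Cd3d* included), 3 named plasmacytoid dendritic cell markers (6.40 to 7.89 against 0.108 to 0.348), 3 skeletal muscle markers (221 to 943 against 0.0324 to 1.09) and 5 endothelial markers (42.3 to 52.7 against 0.289 to 5.34). The sum of 9 macrophage and monocyte markers ran the other way, at 1692 to 2090 FPKM in these 3 libraries and 5608 to 10145 FPKM in the other 3. The 7 named osteoblast markers summed to 5566 to 6599 FPKM in these 3 libraries and 5258 to 8488 FPKM in the others (4204 to 4900 and 9274 to 13289 when rescaled to the sum over named genes), and the 5 named osteocyte markers to 48.2 to 53.5 and 57.1 to 135 FPKM. Single markers of these lists, chosen after their values were seen, differed in direction. *Sost*, the sclerostin gene of osteocytes, was at 15.8 to 22.7 FPKM in these 3 libraries and 0.0661 to 0.198 FPKM in the others. *Bglap2*, an osteocalcin gene, was at 1641 to 1959 and 264 to 513 FPKM, while *Ibsp*, the bone sialoprotein gene, was at 43.1 to 91.3 and 986 to 1278 FPKM. Libraries are therefore named here by label and replicate, with their *Hbb-bt* status as a measured property and not as a group of the study. Whether the labels of some libraries were exchanged was not tested, so bone and osteoblasts in every value and fold change below mean the deposited label. The part that any of these cell types has in the values of the interferon-stimulated genes was not tested, and in bulk RNA fewer cells of a type and less RNA per cell cannot be told apart.

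A second property of the libraries bears on every level below. Unnamed features took 71.5% of all FPKM for bone replicate 2 and 65.0% for osteoblasts replicate 1, while the remaining 4 libraries had 27.4% to 30.7% there. FPKM are scaled to all aligned reads, so the named genes of those libraries read low. Where rescaling to the sum over named genes changes whether a member or a list sum separates by *Hbb-bt* status, the text says so. Aligned depth was 2.03 to 3.39 Gb of bases, and 3 pairs from a 1 kb transcript would give 0.133 to 0.221 FPKM, a floor that covers counting error only.

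The promoters of 6 members whose genes carry patterns reported next are shown, and all 6 hold a core of the response element. They do not stand for every gene of a pattern. *Irf7*, *Cmpk2* and *Oasl1*, higher with high *Hbb-bt* as *Rsad2* and *Isg15* were, lack this core, and *Usp18* and *Oas2* had no promoter entry. The motif searched, a core of the element, was GAAA followed after any 2 bases by a further GAAA. It was searched on both strands, and matches may overlap. It was found in 15 of 24 members with a promoter in the RefSeq table (62.5%), and in 1079 of all 27025 genes with one (3.99%), in windows from 250 bases before the start to 50 after. By promoter, it was in 16 of 28 (57.1%) for the members and 1131 of 32851 (3.44%) for all. Each line gives, for the RefSeq build GRCm38.p6, the 130 bases that end just before the annotated start, written 5′ to 3′ on the gene's strand, with matches to the motif on either strand in capitals.

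Rsad2, chr12:26456453-26456582, minus strand: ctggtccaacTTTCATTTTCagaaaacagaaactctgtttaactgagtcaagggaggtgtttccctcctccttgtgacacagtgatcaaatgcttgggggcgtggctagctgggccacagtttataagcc
Isg15, chr4:156200819-156200948, minus strand: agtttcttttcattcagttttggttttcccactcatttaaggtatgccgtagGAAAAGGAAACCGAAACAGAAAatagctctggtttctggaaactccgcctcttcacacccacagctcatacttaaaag
Oas3, chr5:120777660-120777789, minus strand: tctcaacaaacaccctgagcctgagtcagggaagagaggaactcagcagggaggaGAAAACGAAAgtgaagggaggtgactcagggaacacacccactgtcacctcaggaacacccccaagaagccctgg
Oas1g, chr5:120887614-120887743, minus strand: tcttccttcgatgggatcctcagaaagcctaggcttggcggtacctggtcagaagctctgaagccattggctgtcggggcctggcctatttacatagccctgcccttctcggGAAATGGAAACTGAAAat
Bst2, chr8:71537473-71537602, minus strand: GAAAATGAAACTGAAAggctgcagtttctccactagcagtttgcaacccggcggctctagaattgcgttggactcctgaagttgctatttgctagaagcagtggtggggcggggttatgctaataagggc
Gbp2, chr3:142620533-142620662, plus strand: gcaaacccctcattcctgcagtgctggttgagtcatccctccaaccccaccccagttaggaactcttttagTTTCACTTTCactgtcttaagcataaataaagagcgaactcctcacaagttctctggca

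The *Rsad2* window holds 1 match, from 120 to 111 bases before the start, and the *Isg15* window holds 3 matches that overlap, from 78 to 57 bases before it. The window of *Oas1g* has 2 overlapping matches close to its end, from 18 to 3 bases before the start, and the 2 overlapping matches of *Bst2* open its window. The motif was not found in the windows of *Irf7*, *Cmpk2*, *Oasl1*, *Ifi35*, *Xaf1*, *Ifi44*, *Ifit2*, *Irf9* or *Oasl2*, which says only that these letters are absent there. A second motif, TTCNNNGAA, the core of the gamma-activated site bound by STAT dimers, was in 4 of the 28 promoters of members, including *Bst2* and *Ifi35*, and in 8.30% of all promoters. A match is a description of the sequence and not a shown binding site.

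The 26 named members summed to 127, 62.4 and 147 FPKM for bone (values are always in the order of replicates 1, 2 and 3), and to 82.3, 182 and 155 FPKM for osteoblasts. The sums were highest in the 3 libraries with high *Hbb-bt*, but rescaled to named genes they were 138, 114 and 109 for bone and 137, 137 and 122 for osteoblasts, with the 2 sets of libraries overlapping. Between 15 and 20 members reached 1 FPKM in a library, and 15 of the 26 reached 5 FPKM in at least 1 library. *Bst2* was the highest member in the 3 libraries labelled bone and in osteoblasts replicate 1, and *Rsad2* was the highest in osteoblasts replicates 2 and 3.

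**Figure D1:**
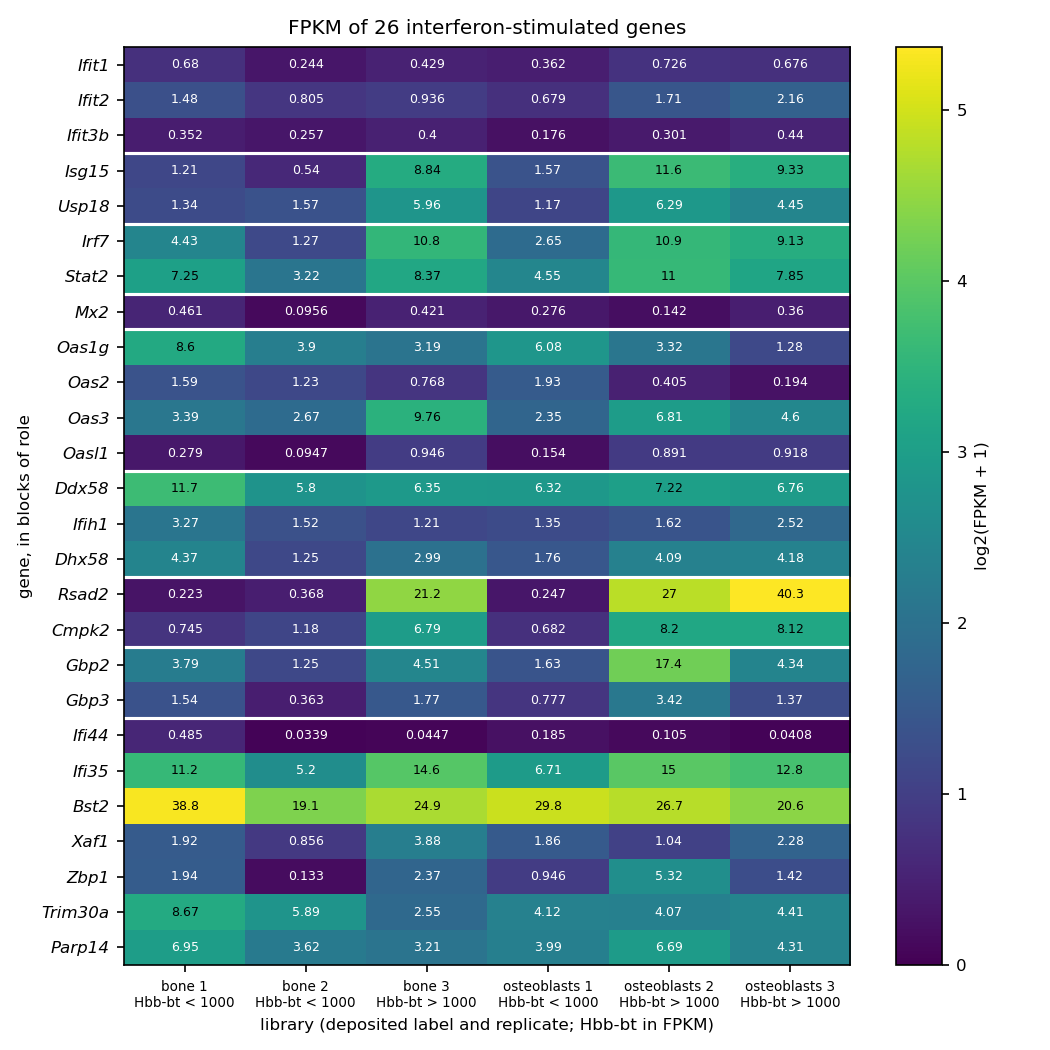
Color and printed numbers give the FPKM of the 26 named interferon-stimulated genes (rows, in blocks of role) in the 6 libraries (columns, with label, replicate and whether *Hbb-bt* is above 1000 FPKM). The color scale is log2(FPKM + 1), and *Rsad2* stands out at 21.2 to 40.3 FPKM in 3 libraries and 0.223 to 0.368 FPKM in the other 3.

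*Rsad2*, which encodes viperin, an enzyme that makes a chain-terminating nucleotide against viral polymerases, lies on the minus strand at chr12:26442746-26456452 (coordinates of features are those of the deposited tables, build GRCm38). It was at 0.223, 0.368 and 21.2 FPKM in bone, and at 0.247, 27.0 and 40.3 FPKM in osteoblasts. The 3 libraries with high *Hbb-bt* were all far above the others, and the lowest of them was 57.8 times the highest of the rest. Of the 12112 genes, 3.40% had a gap at least as large in the same direction, so *Rsad2* was near but not at the extreme of all genes. Rescaled to named genes the gap was 23.5 times, which 3.71% of genes reached. In the libraries without high *Hbb-bt*, however, *Rsad2* lay near their depth floors of 0.181 to 0.221 FPKM. The size of these gaps, and of the ratios with *Rsad2* below, is therefore uncertain.

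*Cmpk2*, a nucleotide kinase that supplies viperin's substrate, is the neighbor of *Rsad2* on the opposite strand, at chr12:26469204-26479837 and 12751 bp away. It was at 0.745, 1.18 and 6.79 FPKM in bone and 0.682, 8.20 and 8.12 FPKM in osteoblasts. The same 3 libraries were high and did not overlap the others, with a gap of 5.75 times that 8.03% of genes reached, or 2.34 times (10.1% of genes) when rescaled to named genes. The ratio of *Rsad2* to *Cmpk2*, which no scaling of a library changes, was 0.300, 0.311 and 3.13 in bone and 0.363, 3.30 and 4.96 in osteoblasts. Within the pair, then, *Cmpk2* was the higher gene in 3 libraries and *Rsad2* in the 3 with high *Hbb-bt*. This and the other ratios below were chosen after the values were seen.

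*Isg15*, a ubiquitin-like protein that is attached to viral and host proteins, lies at chr4:156199424-156200818 on the minus strand. It was at 1.21, 0.540 and 8.84 FPKM in bone and 1.57, 11.6 and 9.33 FPKM in osteoblasts. *Usp18*, the protease that removes it and also blocks the interferon receptor, lies at chr6:121245906-121270917 and was at 1.34, 1.57 and 5.96 FPKM in bone and 1.17, 6.29 and 4.45 FPKM in osteoblasts. Both genes were higher in every library with high *Hbb-bt* than in any other, by gaps of 5.62 and 2.84 times, which 8.11% and 12.2% of genes reached. Rescaled to named genes the gaps shrank to 2.51 and 1.23 times.

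Among the transcription factors, *Irf7*, the regulator that amplifies interferon gene expression, was at 4.43, 1.27 and 10.8 FPKM in bone and 2.65, 10.9 and 9.13 FPKM in osteoblasts. Its libraries separated by *Hbb-bt* status with a gap of 2.06 times, or 1.49 times when rescaled to named genes. *Stat2*, the subunit that carries the activation domain of ISGF3, was at 7.25, 3.22 and 8.37 FPKM in bone and 4.55, 11.0 and 7.85 FPKM in osteoblasts. Its lowest value with high *Hbb-bt* was only 1.08 times the highest of the others, and rescaled to named genes the libraries overlapped. Scaled to the 75th percentile or by the median ratio the gap was 1.17 and 1.16 times. Under the remaining scaling tried the libraries overlapped. The ratio of *Irf7* to *Stat2* was 0.611, 0.393 and 1.29 in bone and 0.582, 0.986 and 1.16 in osteoblasts, and so was higher in the 3 libraries with high *Hbb-bt* whatever the scaling.

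**Figure D2:**
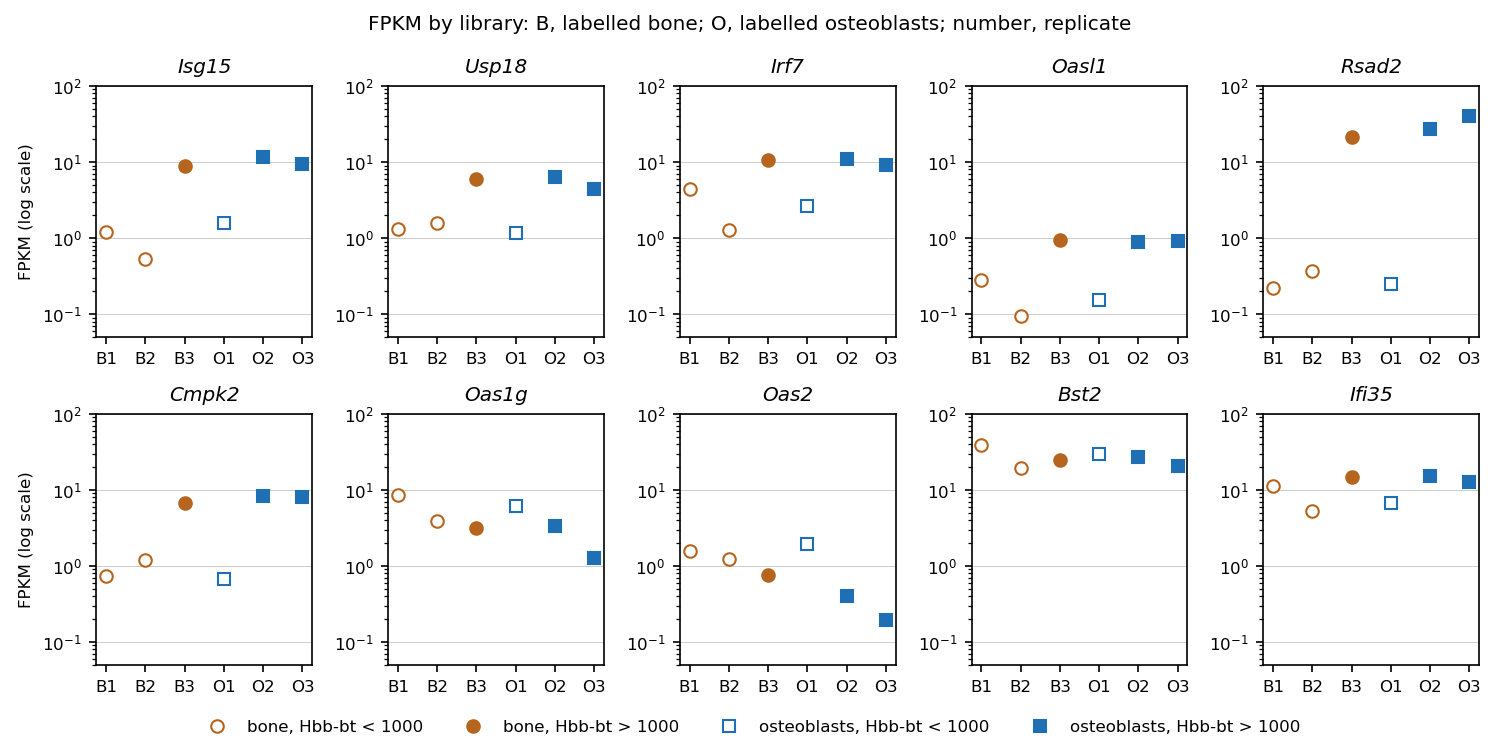
Points give the FPKM, on a log axis, of 10 members in the libraries labelled bone (B, circles) and osteoblasts (O, squares), filled where *Hbb-bt* is above 1000 FPKM. Filled points lie above all open points for *Isg15*, *Usp18*, *Irf7*, *Oasl1*, *Rsad2* and *Cmpk2*, and below them for *Oas1g* and *Oas2*, while those of *Bst2* overlap in FPKM and lie below when rescaled to named genes. For *Ifi35* the filled points lie above in FPKM but overlap when rescaled to named genes.

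The oligoadenylate synthetases, enzymes that answer double-stranded RNA by activating RNase L, did not share one pattern. *Oas3* (chr5:120753098-120777661) was at 3.39, 2.67 and 9.76 FPKM in bone and 2.35, 6.81 and 4.60 FPKM in osteoblasts. *Oas2*, whose feature starts at 120730333 and ends at 120749853 on the same strand, 3244 bp from *Oas3*, was at 1.59, 1.23 and 0.768 FPKM in bone and 1.93, 0.405 and 0.194 FPKM in osteoblasts. The neighbors thus split by *Hbb-bt* status in opposite directions, since the 3 libraries with high *Hbb-bt* were the highest for *Oas3* in FPKM and the lowest for *Oas2*. Among those 3 libraries, though, both genes had the same order. The direction of *Oas3* depends on scaling, for its libraries overlapped when rescaled to named genes, but the ratio of *Oas3* to *Oas2* does not. It was 2.13, 2.17 and 12.7 in bone and 1.22, 16.8 and 23.7 in osteoblasts. The lowest *Oas2* value, in osteoblasts replicate 3, lies near the floor of that depth.

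The feature named *Oas1g* (chr5:120876142-120907521) was at 8.60, 3.90 and 3.19 FPKM in bone and 6.08, 3.32 and 1.28 FPKM in osteoblasts. It was lower in every library with high *Hbb-bt* than in any other. This feature also spans *Oas1a* in RefSeq, so the genes cannot be told apart in it. *Oasl1*, a family member that dampens translation of *Irf7*, stayed below 1 FPKM everywhere (0.0947 to 0.946) and did not pass the filter on the mean, yet its values were higher in the 3 libraries with high *Hbb-bt*. In bone replicate 2 and osteoblasts replicate 1 it was at 0.0947 and 0.154 FPKM, under their depth floors of 0.205 and 0.221 FPKM.

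The cytoplasmic sensors of viral RNA were led by *Ddx58*, which encodes RIG-I, a helicase that detects RNA with a triphosphate end. It was at 11.7, 5.80 and 6.35 FPKM in bone and 6.32, 7.22 and 6.76 FPKM in osteoblasts. These values overlapped by label and by *Hbb-bt* status, but rescaled to named genes they were 12.8, 10.6 and 4.72 for bone and 10.5, 5.45 and 5.33 for osteoblasts, and then lower in the libraries with high *Hbb-bt*. *Ifih1*, which encodes the long-RNA sensor MDA5, ranged from 1.21 to 3.27 FPKM and overlapped. Rescaled to named genes it was at 0.901 to 1.99 with high *Hbb-bt* and 2.26 to 3.57 in the others. That gap was only 1.13 times, which 42.7% of genes reached, and *Ifih1* overlapped under every other scaling tried. *Ddx58* was also lower when scaled to the 75th percentile or by the median ratio. *Dhx58*, the regulator LGP2, ranged from 1.25 to 4.37 FPKM. The ratio of *Ddx58* to *Ifih1* stayed between 2.68 and 5.23 and did not follow *Hbb-bt* status.

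*Bst2*, or tetherin, which holds budding virus on the cell surface, lies at chr8:71534255-71537456. It was at 38.8, 19.1 and 24.9 FPKM in bone and 29.8, 26.7 and 20.6 FPKM in osteoblasts, which overlapped by label and by *Hbb-bt* status. Rescaled to named genes it was 42.4, 34.9 and 18.5 for bone and 49.7, 20.2 and 16.3 for osteoblasts, lower wherever *Hbb-bt* was high. *Bst2* was also lower there when scaled to the 75th percentile or by the median ratio. The ratio of *Rsad2* to *Bst2*, free of scaling, was 0.00576, 0.0193 and 0.854 in bone and 0.00829, 1.01 and 1.95 in osteoblasts. For *Isg15* to *Bst2* it was 0.0311, 0.0283 and 0.356 in bone and 0.0527, 0.436 and 0.452 in osteoblasts. On both ratios the 3 libraries with high *Hbb-bt* were clear of the rest.

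*Ifi35*, a regulator of innate immune signaling, varied little once rescaled to named genes. It was at 11.2, 5.20 and 14.6 FPKM in bone and 6.71, 15.0 and 12.8 FPKM in osteoblasts, and rescaled to named genes it kept to 9.50 to 12.2 in all 6 libraries. The guanylate-binding protein *Gbp2*, a GTPase that attacks the vacuoles of pathogens, was at 3.79, 1.25 and 4.51 FPKM in bone and 1.63, 17.4 and 4.34 FPKM in osteoblasts. Its libraries separated by *Hbb-bt* status in FPKM by only 1.14 times and overlapped when rescaled to named genes. Scaled to the 75th percentile or by the median ratio, *Ifi35* and *Gbp2* were each higher with high *Hbb-bt*, by 1.24 and 1.23 times. Both overlapped under the remaining scaling tried. The library labelled osteoblasts replicate 2 was high by itself for *Gbp2*, and was also the highest for *Gbp3* (3.42 FPKM, against 0.363 to 1.77 FPKM elsewhere).

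*Zbp1*, a sensor of Z-form nucleic acid, was also highest in osteoblasts replicate 2, with 1.94, 0.133 and 2.37 FPKM in bone and 0.946, 5.32 and 1.42 FPKM in osteoblasts. *Trim30a*, a ubiquitin ligase that restrains Toll-like receptor signals, was at 8.67, 5.89 and 2.55 FPKM in bone and 4.12, 4.07 and 4.41 FPKM in osteoblasts. *Parp14*, an ADP-ribosyltransferase, was at 6.95, 3.62 and 3.21 FPKM in bone and 3.99, 6.69 and 4.31 FPKM in osteoblasts. None of these 3 separated by label. In FPKM none separated by *Hbb-bt* status either, but rescaled to named genes *Trim30a* was at 1.89 to 3.48 with high *Hbb-bt* and 6.87 to 10.8 in the others, and *Parp14* at 2.38 to 5.05 and 6.62 to 7.59. *Parp14* was lower under that scaling alone of the 5, and *Trim30a* under 3 of them.

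The other members were low. *Ifit1*, *Ifit2* and *Ifit3b*, of a family that binds foreign RNA ends, ranged from 0.176 to 2.16 FPKM over all libraries. *Mx2* was at 0.0956 to 0.461 FPKM and *Ifi44* at 0.0339 to 0.485 FPKM, values at and around the depth floor, and RefSeq lists *Mx2* as a transcribed pseudogene. *Xaf1*, an antagonist of inhibitors of apoptosis, ranged from 0.856 to 3.88 FPKM and overlapped by label and by *Hbb-bt* status under each of the 5 scalings. *Ifit3b* is nearly identical to *Ifit3*, and how reads were divided between them is uncertain.

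The make-up of the members' summed FPKM differed between libraries in a way that no scaling can alter. *Rsad2* and *Cmpk2* together made up 0.765%, 2.48% and 19.0% of the sum in bone and 1.13%, 19.4% and 31.3% in osteoblasts. *Isg15* and *Usp18* made up 2.01%, 3.37% and 10.1% in bone and 3.33%, 9.86% and 8.90% in osteoblasts. *Bst2* alone made up 30.6%, 30.6% and 16.9% in bone and 36.2%, 14.7% and 13.3% in osteoblasts. The RIG-I-like receptors made up 11.4% to 15.3% in the 3 libraries with low *Hbb-bt* and 7.11% to 8.69% in the others.

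**Figure D3:**
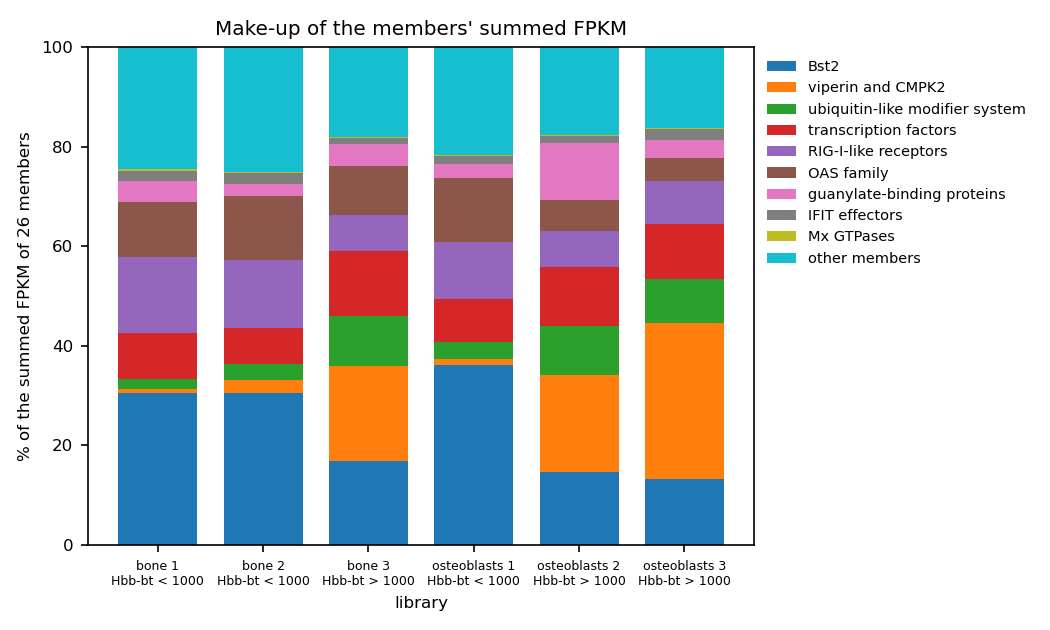
Stacked bars give the percentage of the summed FPKM of the 26 named members held by *Bst2* and by each role, 1 bar for each of the 6 libraries. Viperin and CMPK2 take 19.0% to 31.3% in the 3 libraries with *Hbb-bt* above 1000 FPKM and 0.765% to 2.48% in the other 3, where *Bst2* takes 30.6% to 36.2%.

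Counted over the tested members, 9 of 21 (42.9%) had every FPKM in the libraries with high *Hbb-bt* above every FPKM in the others, against 38.4% of all 12112 genes. They were *Isg15*, *Usp18*, *Irf7*, *Stat2*, *Oas3*, *Rsad2*, *Cmpk2*, *Gbp2* and *Ifi35*. In the other direction there were 2 of 21 (9.52%), *Oas1g* and *Oas2*, against 16.9% of all genes. Rescaled to named genes the counts were 5 higher (23.8%, against 21.4% of all genes) and 7 lower (33.3%, against 48.6%). The higher shares lay near those of all genes and are no result about the members as a set. The filter used the mean over all 6 libraries, so a gene can pass it through the libraries where it is high. *Rsad2* and *Cmpk2*, at 0.223 to 0.368 and 0.682 to 1.18 FPKM without high *Hbb-bt*, passed through those with it. *Oas2* passed through the others. The shares of all genes hold genes that passed in these ways too. Under FPKM, TPM (the same values rescaled to a fixed total per library) and 3 rescalings together, *Isg15*, *Usp18*, *Irf7*, *Rsad2*, *Cmpk2* and the untested *Oasl1* were higher each time, where 21.4% of tested genes were, and *Oas1g* and *Oas2* were lower each time, where 15.5% were. No test was run on *Hbb-bt* status, which was read from the libraries themselves.

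Between the labels, 0 of the 21 tested members had all osteoblast values above all bone values and 0 had all below, where 0.479% and 0.438% of all genes did. The members' counts were 0 under each of the 4 other scalings too. limma, which fits a linear model to each gene's log2(FPKM + 1) and shares the estimate of spread across genes, called 0 of 12112 genes (0%) at an adjusted p under 0.05, and 0 members. At an unadjusted p under 0.05 there were 17 genes and 0 members, and the smallest unadjusted p of a member in limma was 0.208. Of the 21 members, 13 had a positive log2 fold change (osteoblasts minus bone) and 8 a negative one, from -0.50 to 1.76 with a median of 0.20, beside a median of 0.12 over all genes tested, which became -0.03 when rescaled to named genes. 

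By limma, *Rsad2* had a log2 fold change of 1.76 (SE 1.45), from 7.28 ± 12.1 FPKM in bone to 22.5 ± 20.4 FPKM in osteoblasts (SD, n = 3 each). *Isg15* had one of 1.11 (SE 0.82), from 3.53 ± 4.61 to 7.52 ± 5.28 FPKM. In bone both SDs exceeded the mean, with 1 of 3 bone libraries and 2 of 3 osteoblast libraries high in *Hbb-bt*. The log2 fold changes were 0.71 (SE 0.71) for *Gbp2*, 0.53 (SE 0.69) for *Irf7*, 0.28 (SE 0.50) for *Stat2* and 0.18 (SE 0.52) for *Ifi35*. They were -0.05 (SE 0.48) for *Bst2*, at 27.6 ± 10.1 FPKM in bone and 25.7 ± 4.67 FPKM in osteoblasts (SD, n = 3 each), and -0.15 (SE 0.43) for *Ddx58*. The adjusted p of limma was 0.999 for all 8. Without the library labelled osteoblasts replicate 1, limma called 300 of 12112 genes and 1 of 21 members, *Rsad2* (log2 fold change 3.35, adjusted p = 0.00972). Without bone replicate 3 it called 77 of 12112 genes and no member (*Rsad2*, adjusted p = 0.0676). In the first of these fits every osteoblast library left was high in *Hbb-bt*, and in the second every bone library left was low. Their calls are therefore not about the labels alone.

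**Figure D4:**
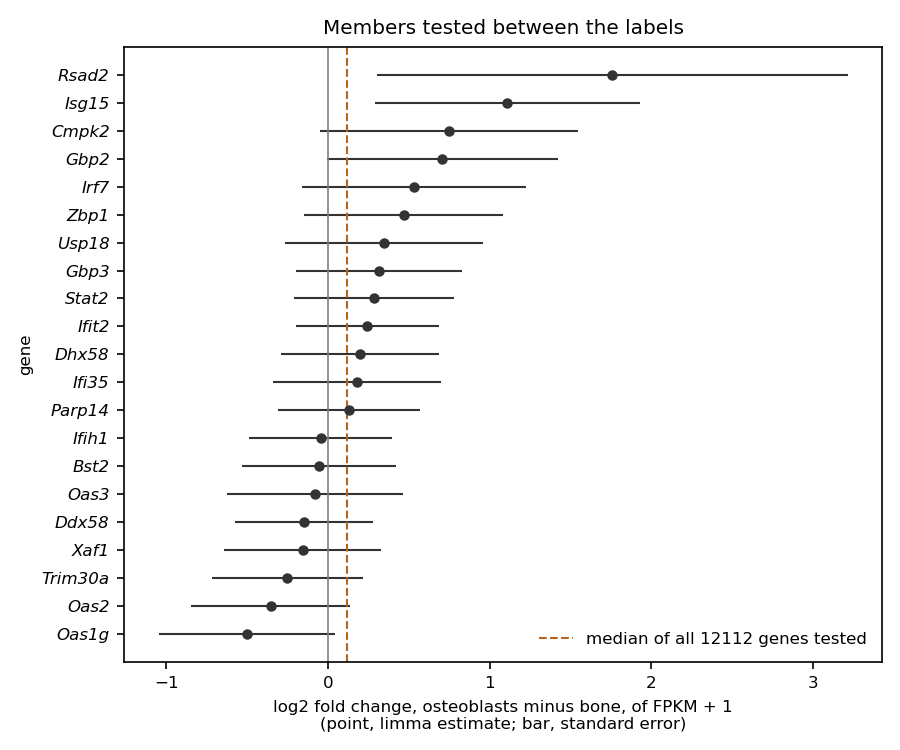
Points give limma's log2 fold change of FPKM + 1 between the 3 libraries labelled osteoblasts and the 3 labelled bone for the 21 tested members, bars the standard error, and the dashed line the median of all 12112 genes tested (0.12). Estimates run from -0.50 for *Oas1g* to 1.76 for *Rsad2*, and 0 of 21 passed the adjusted threshold.

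The rest of the pathway was read from 6 lists with 126 genes, of which 71 passed the filter on the mean. By limma, 0 of these were called in either direction between the labels and 0 had an unadjusted p under 0.05. Of 21 interferon ligands 0 passed the filter and 17 were at 0 in every library, *Ifnb1*, the interferon beta gene, among them. The ligand sum stayed between 0.0777 and 0.572 FPKM, and *Ifng*, interferon gamma, was read only in bone replicate 3, at 0.198 FPKM, within the range of the depth floor.

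The 5 named receptor genes did not share 1 direction. *Ifnar1* was at 37.8, 20.3 and 14.3 FPKM in bone and 20.7, 16.0 and 15.5 FPKM in osteoblasts, and *Ifnar2* was at 90.2, 54.6 and 32.3 FPKM in bone and 54.6, 33.5 and 36.1 FPKM in osteoblasts. Both were lower in every library with high *Hbb-bt* than in any other, in contrast to *Isg15* and *Rsad2*, and their ratio kept between 2.09 and 2.69. *Ifnlr1*, a chain of the receptor for type III interferons, ran the other way, at 3.31 to 4.21 FPKM where *Hbb-bt* was high and 0.0288 to 0.0887 FPKM, under the depth floor, elsewhere. The 5 named receptor genes had a median log2 fold change of -0.22 between the labels.

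The 7 named genes of JAK-STAT signaling summed to 86.6 to 166 FPKM, overlapping by *Hbb-bt* status, though rescaled to named genes they were lower where it was high (82.5 to 109 against 158 to 195). The 6 other interferon regulatory factors summed to 72.5, 32.5 and 110 FPKM in bone and 43.4, 130 and 114 FPKM in osteoblasts. They were led by *Irf8*, a factor of myeloid and dendritic cells, at 38.6 to 44.3 FPKM with high *Hbb-bt* and 10.9 to 20.1 FPKM in the others, and *Irf1*, a target of interferon gamma, at 26.5 to 45.1 and 6.37 to 16.9 FPKM. The 11 named sensing and adaptor genes summed to 60.9 to 98.6 FPKM, and 47 further interferon-stimulated genes to 747 to 1752 FPKM, led by *B2m*, the light chain of MHC class I. Both sums overlapped by *Hbb-bt* status in FPKM. Rescaled to named genes both were lower where it was high. The sensing sum was then at 57.3 to 62.9 against 102 to 122, and that of the further genes at 1096 to 1323 against 1364 to 1601. *Siglech*, the defining surface receptor of plasmacytoid dendritic cells, which make type I interferon, was at 2.91, 4.81 and 4.00 FPKM in bone replicate 3 and osteoblasts replicates 2 and 3, and at 0 to 0.0266 FPKM in the others. It thus moved with *Rsad2*, *Isg15* and *Irf7*, as did the neutrophil, lymphocyte and red cell markers, and its part in their levels was not tested.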

How the data were processed

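RNA-seq was done on 3 libraries labelled bone and 3 labelled osteoblasts. The authors made TruSeq libraries, aligned 75 bp read pairs to GRCm38 with HISAT2 2.0.5 and estimated expression with StringTie 1.3.3. They deposited the FPKM, TPM and coverage (signal) of 93285 features per library, with no counts. Depth was computed from the ratio of coverage to FPKM. FPKM of features with 1 name were summed. Labels gave the groups. Genes whose mean FPKM reached 1 were compared on log2(FPKM + 1) with limma 3.58.1 (R 4.3.3; lmFit, eBayes with a trend), and p-values were adjusted by Benjamini-Hochberg over all 12112 genes and a threshold of 0.05. A fold change on this scale understates that of low genes. On simulated data for the 12112 genes (spread 0.4 on the log2 scale, 200 genes changed by 2) limma recovered 200 with 9 other calls. The measured libraries had a median residual SD of 0.59, above the simulated one. Promoters came from RefSeq (GRCm38.p6), matched by symbol for 24 of the 32 members.

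FPKM are printed by library for members that reach 5 in any library, and fold changes for the 8 with the highest mean. *Oas2*, which did not reach 5, is printed by library as well, beside its neighbor *Oas3*. From the other lists, the genes of highest mean and a few of the pathway were named. *Oasl1*, *Cd3d*, *Ifnlr1* and the bone cell markers were named after their values were seen. The members and lists were chosen with earlier results of these data known. Alternatives were TPM, 3 other scalings (to the sum of named genes, the 75th percentile and the median ratio), a pseudocount of 0.1, other filters, no trend, a replicate block and leaving out each library.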

Additional observations from a re-analysis of the deposited data

Results flagged for a closer look

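Features without a name lie over members that had no feature of their own and so entered no comparison. In each of the 3 cases given first, all 6 values were above the highest depth floor of 0.221 FPKM. The feature over *Ifit3* (chr19:34583193-34588731) ranged from 0.483 to 0.995 FPKM. The feature over *Irf9*, the DNA-binding subunit of ISGF3 (chr14:55591150-55610030), ranged from 8.47 to 20.4 FPKM, and it also spans *Rnf31*, a ubiquitin ligase subunit, so the genes cannot be told apart. The feature over *Oasl2* (chr5:114891736-114912234) ranged from 1.88 to 5.46 FPKM. The *Irf9* feature was at 12.2, 8.47 and 19.3 FPKM for bone and at 11.3, 20.4 and 18.9 FPKM for osteoblasts, in the order of replicates 1, 2 and 3, higher in each library with high *Hbb-bt* than in any other. Rescaled to named genes it was at 13.3, 15.5 and 14.3 for bone and 18.8, 15.4 and 14.9 for osteoblasts, and the libraries overlapped. An unnamed feature over *Mx1* ranged from 0.0544 to 0.791 FPKM, and *Rtp4* lies in a feature named *Gm45338* at 0.859 to 4.84 FPKM. No group had enough samples for a search for single outlying samples.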

How the results depend on the processing

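The count of members without overlap by *Hbb-bt* status moved with scaling, from 9 higher in FPKM. Rescaled to named genes 5 members were higher (23.8%, against 21.4% of all genes tested) and 7 lower (33.3%, against 48.6%). With TPM 6 were higher (28.6%, against 25.9% of all genes). With the 75th percentile or the median ratio 8 were higher (38.1%, against 37.1% and 36.7% of all genes). Under these scalings 5 were lower, in place of 2 (23.8%, against 32.1% and 32.6% of all genes). No member was called between the labels under any alternative that kept all 6 libraries. Leaving out each library in turn, limma called 0 to 300 genes and 0 to 1 member, and the members' median log2 fold change ran from -0.07 to 0.50. With a library left out, the log2 fold change ran from -0.28 to 0.21 for *Bst2*, -0.20 to 0.49 for *Ifi35*, -0.32 to 0.13 for *Ddx58*, -0.068 to 0.58 for *Stat2*, -0.074 to 1.11 for *Irf7* and -0.059 to 1.34 for *Gbp2*, so these directions rest on single libraries. It stayed positive for *Isg15* (0.58 to 1.92) and *Rsad2* (0.82 to 3.35). Both genes were high in bone replicate 3 and osteoblasts replicates 2 and 3, where *Hbb-bt* was high. Leaving out any 1 library keeps the larger share of such libraries under the osteoblast label, so the constant sign adds nothing about the labels. The cause was not tested. Without counts, no interval can be given for a single FPKM value.

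The labels share replicate numbers, and deviations of same-numbered libraries from the mean of their label correlated at 0.84, -0.75 and 0.83 over 12112 genes. Not every library correlated best with its own number. The signs went with *Hbb-bt* status, at 0.80 to 0.84 between libraries of like status and -0.91 to -0.72 between those of unlike status. The correlations therefore cannot show whether same-numbered libraries share a mouse. With the replicate block limma called 49 genes (46 higher, 3 lower) and 0 members. At an unadjusted p under 0.05 this limma fit had 501 of 12112 genes and 2 of 21 members.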
